A study of Arabidopsis thaliana with 48 samples.

Results

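A set of 119 probe sets had a transcript level in auxin-treated Arabidopsis roots at least 2-fold below control roots at each of 4, 8, 12 and 24 h. The members were chosen by a rule on the deposited log2 values. D is the mean of the 3 auxin arrays minus the mean of the 3 control arrays of a time, and a member had D of at most -1 at all 4 of these times and a mean over all 48 arrays of at least 6.5. The 119 were taken from 22746 probe sets, of which 15732 reached that mean. Because the values of 4 to 24 h chose the members, those of the members are described below without a test, and tests of members are given only for 0 to 2 h.

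The arrays measured total RNA of whole roots from Arabidopsis thaliana seedlings aged 6 days. The seedlings had been grown in continuous light on a nylon screen laid on MS medium with sucrose. Screen and seedlings were then moved to fresh medium of 1 of 2 kinds: control medium, or medium with 1 µM indole-3-acetic acid (IAA, the main natural auxin). Roots were harvested at 8 times: right away (labelled 0 h, under 5 minutes on the new medium), after 0.5, 1 and 2 h, and later after 4, 8, 12 and 24 h. Every medium and time had 3 arrays, 48 in 16 groups, and the labels name no mutant, transgene or ecotype. They do not say whether the replicates were grown separately, so p-values measure only the spread between these samples.

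Auxin enters the nucleus and brings the TIR1/AFB receptors and the Aux/IAA repressors together, which leads to destruction of the repressors and frees the ARF transcription factors. The best known outcome is a rapid rise of target genes, while genes that fall after auxin are a more mixed group and can lie several steps downstream. In roots, applied auxin inhibits elongation, affects root hairs and starts lateral roots, processes that change the wall, the mix of cell types and their state of differentiation. In whole roots, fewer cells of a type and less RNA per cell cannot be told apart.

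Of the 119 members, 62 have a probe set that the gene table pairs with exactly 1 gene, 4 are paired with several genes and 53 are not listed. The 62 name 61 genes, because AT1G22330, which codes for a protein with an RNA recognition motif, has 2 probe sets among them. The named share was 52.1% of the members and 59.4% of all probe sets. The mean of a member over the 48 arrays ran from 6.5 to 12.46 with a median of 8.92, against a median of 7.58 over all probe sets. The named members lay on all 5 chromosomes, with 20, 10, 10, 9 and 12 genes on chromosomes 1 to 5.

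The median difference of the set deepened up to 8 h, while single members took different courses. The median D of the 119 members was 0.15 at 0 h, -0.43 at 0.5 h, -0.49 at 1 h and -1.17 at 2 h. It was -1.81 at 4 h, -2.05 at 8 h, -1.92 at 12 h and -1.35 at 24 h, while the median over all 22746 probe sets stayed between -0.02 and 0.01 at every time. The members were thus partly lowered at times that the rule did not use, and their difference was largest in the middle of the course. The lowest D of a member lay at 8 h for 58 members, at 12 h for 29, at 4 h for 22, at 2 h for 7, at 24 h for 2 and at 1 h for 1.

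**Figure D1:**
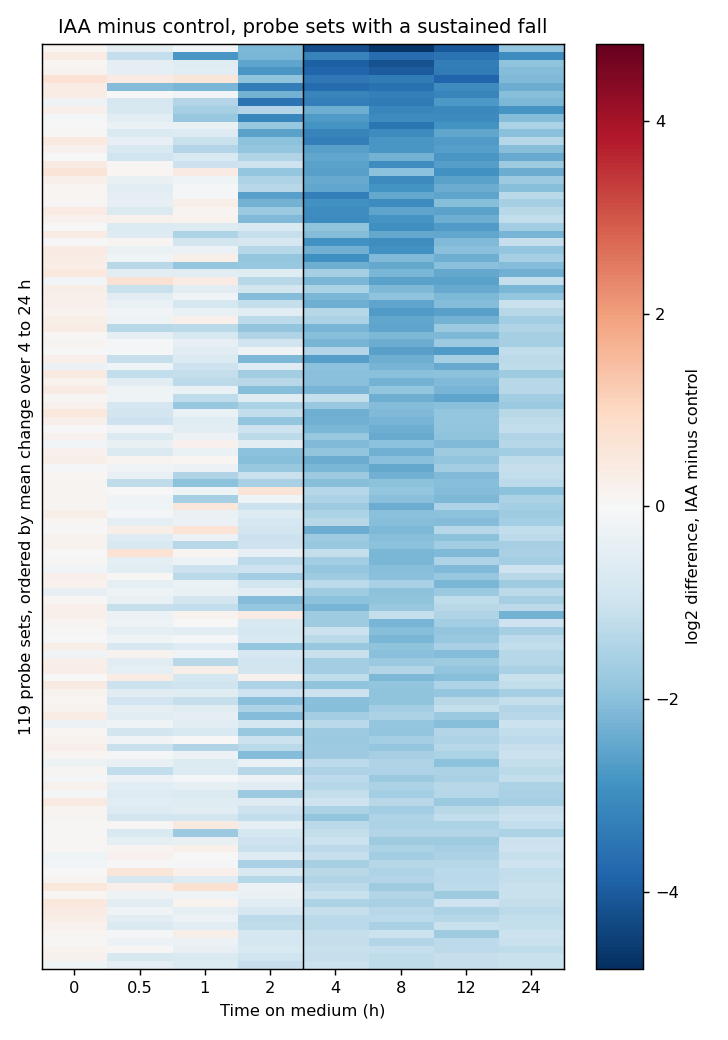
Each line is 1 of the 119 probe sets and each column a time on the medium in hours; colour gives the log2 difference, IAA minus control, with blue for lower on IAA. Lines are ordered by the mean difference over 4 to 24 h, the black line separates the times the rule used from the earlier ones, and the median runs from 0.15 at 0 h to -1.17 at 2 h and -2.05 at 8 h.

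The difference between the media lay mostly in the IAA arrays. Relative to 0 h on the same medium, the median change on IAA was -0.60 at 0.5 h, -0.82 at 1 h, -1.34 at 2 h, -1.90 at 4 h, -2.11 at 8 h, -2.0 at 12 h and -1.28 at 24 h. On control medium the medians at the same times were 0.01, -0.21, 0.10, 0.15, 0.15, 0.12 and 0.21. A decrease of at least 2-fold from 0 h was seen on IAA in 114, 119, 118 and 97 members at 4, 8, 12 and 24 h and on control medium in 0 at each of these times. Over all probe sets the shares were 2.25%, 2.52%, 2.1% and 1.31% on IAA and 0.0791%, 0.0923%, 0.0264% and 0.0703% on control. The rule used the arrays of these times, so the counts describe the members and are not a test. On control medium 0.114% of all probe sets were at least 2-fold higher than at 0 h at 12 h and 0.0659% at 24 h. Of the members, 4 were so at 12 h and 5 at 24 h. Among them was AT5G04120, a phosphoglycerate mutase family gene that stood 1.29 higher on control medium at 24 h than at 0 h and 1.52 lower on IAA (log2: 1.29 and -1.52). The decrease on IAA was larger than the increase on control medium in all 119 members at 4, 8 and 12 h and in 115 at 24 h.

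**Figure D2:**
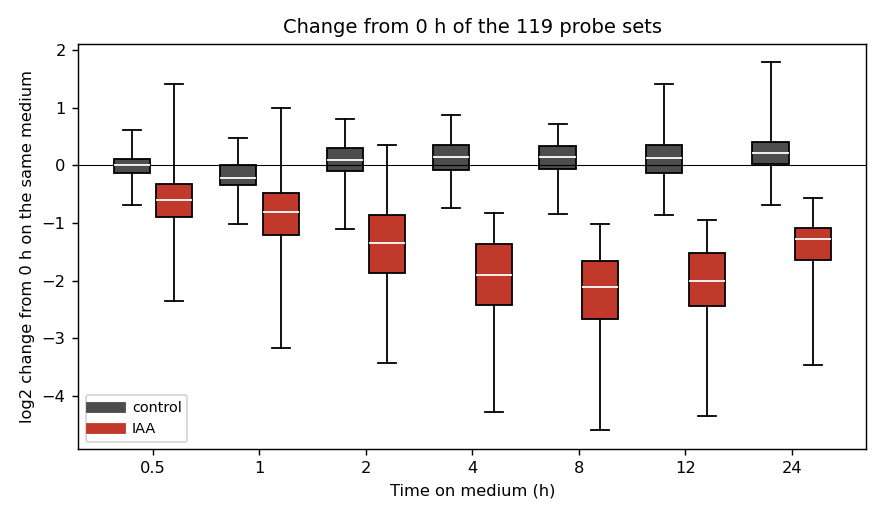
Boxes show the 119 probe sets' log2 change from 0 h on the same medium against time in hours, grey for control and red for IAA; the box spans the quartiles, the white line is the median and the whiskers reach the lowest and highest probe set. The IAA medians lie between -0.60 and -2.11 and the control medians between -0.21 and 0.21.

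At 0 h no test called a member between the media. With limma, 0 of the 119 were lower at an adjusted p under 0.05 and 0 were higher, as were 0% of all probe sets. At an unadjusted p under 0.05 the count was 0 of the members, where 0.796% of all probe sets passed, and the groups were apart with IAA lower in 0 members and 1.44% of all probe sets. D was above 0 in all but 19 members (16%), where 47.9% of all probe sets were below 0, so the start was slightly higher on IAA for most members. IAA replicate 1 held the highest of the 3 IAA values of 0 h in 68.9% of the members and 30.2% of all probe sets. The median of the members relative to the control mean was 0.39, 0.08 and -0.05 in IAA replicates 1, 2 and 3. The changes from 0 h on IAA given above start from this level. On the control arrays, the comparisons of 0.5, 1 and 2 h with 0 h gave 0 calls among the members in limma. The unadjusted p was under 0.05 for 1, 1 and 0 members at these times, and for 1.48%, 1.63% and 1.91% of all probe sets.

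Tests of IAA against control at the early times called 4 members lower at 0.5 h, 12 at 1 h and 65 at 2 h, and 0 higher at any of these (limma, adjusted p under 0.05 over all probe sets). Over all probe sets the share called lower was 0.251% at 0.5 h, 0.607% at 1 h and 3.76% at 2 h, and among those with a mean of at least 6.5 it was 0.343%, 0.833% and 4.93%. The share called higher was 0.928%, 1.34% and 5.44%, and 1, 0 and 0 members were higher at an unadjusted p under 0.05. The moderated F test over the 3 times called 54 members, against 8.85% of all probe sets and 11.7% of those with that mean. All 3 IAA arrays lay below all 3 control arrays in 23 members at 0.5 h, 30 at 1 h and 65 at 2 h, where 6.86%, 5.4% and 9.48% of all probe sets did. At 4, 8, 12 and 24 h the counts were 118, 118, 117 and 110 against 17.2%, 16.8%, 15.3% and 10.6%, and nothing is read from these because the rule used the same contrasts.

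The early counts changed when single arrays were left out. Fewer arrays also leave less power for every probe set, and shares over all probe sets were not taken for these omissions. At 0.5 h the count of 4 dropped to 0 on omission of control replicate 1, to 1 on omission of control replicate 2 or of IAA replicate 1 or 2, and was 8 when IAA replicate 3 was omitted. At 1 h the 12 became 2, 4 and 3 when control replicate 1, control replicate 3 or IAA replicate 1 was omitted. At 2 h the 65 became 43, 36 and 35 when control replicate 1, IAA replicate 1 or IAA replicate 2 was omitted. Of the 65, 30 passed with any 1 array of 2 h left out and 16 passed under all 16 alternatives tried, 8 of which are named: AT5G66815, AT4G25250, EXPB1, XTH16, XTH21, SWEET14, AT5G24100 and AT4G01140. AT4G01140 read 8.05, 7.88 and 8.06 on control and 5.95, 5.95 and 6.65 on IAA at 2 h (D = -1.81 ± 0.24, limma adjusted p = 1.4e-06). At 0.5 h its D of -0.87 did not pass (0.0704) but did with the replicate number as a block (0.036).

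By the first time past the test, 4 members were called first at 0.5 h, 9 at 1 h and 53 at 2 h, and 53 were not called by 2 h. The last group had a median D of -0.80 at 2 h and -2.06 at 8 h, and the group first called at 2 h had -1.74 and -2.05. The split by the test of 2 h fixed the gap at 2 h, and the rule used the values of 8 h. Nothing is therefore read from either comparison. Between 0.5 and 2 h the difference between the media deepened in 6 members by its own test, an interaction term in limma, where 0.18% of all probe sets passed in that direction. Among the IAA arrays of 2 h, omitting replicate 1 left 1, replicate 2 left 3 and replicate 3 gave 17. The count was also 3 when replicate 1 or 3 of the 0.5 h controls, replicate 2 or 3 on IAA at 0.5 h, or replicate 2 or 3 of the 2 h controls was omitted. With the replicate number as a block 11 members passed, among them XTH16 (-1.11, limma adjusted p = 0.0829 without and 0.0295 with the block), SWEET14 (-1.72, 0.0678 and 0.0423) and AT2G30930 (-1.59, 0.197 and 0.0226).

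**Figure D3:**
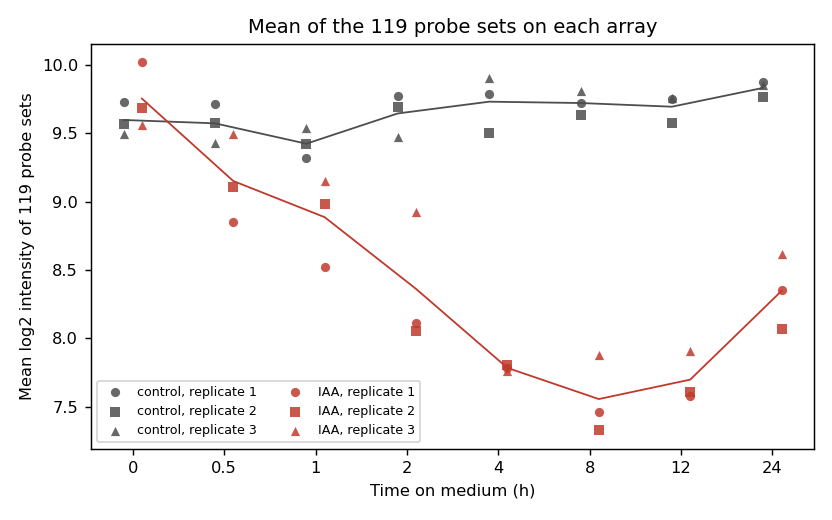
Mean log2 intensity of the 119 probe sets on each array against time in hours, with circles, squares and triangles for replicates 1, 2 and 3 and lines through the group means. The 24 control arrays lie between 9.32 and 9.91, the 12 IAA arrays of 4 to 24 h between 7.33 and 8.62, and replicate 3 is the highest IAA array at 0.5, 1, 2, 8, 12 and 24 h.

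Within the IAA groups of 0.5 to 2 h, replicate 3 was less lowered than replicates 1 and 2. It held the highest of the 3 IAA values in 75.6% of the members at 0.5 h, 58.8% at 1 h and 77.3% at 2 h, where the share over all probe sets was 40.1%, 37.4% and 39.2%. At 2 h the median of the members relative to the control mean was -1.43 in replicate 1, -1.47 in replicate 2 and -0.75 in replicate 3. The auxin-induced genes GH3.3, whose product inactivates auxin by joining it to amino acids, and LBD29, a lateral root transcription factor, were high in all 3 IAA arrays of 2 h. GH3.3 read 13.78, 13.69 and 13.43 there and LBD29 11.69, 11.45 and 11.18, with replicate 3 the lowest in both. On control medium GH3.3 read 7.53, 7.07 and 9.57 at 0.5 h and 10.94, 7.78 and 7.85 at 1 h. Control replicate 3 of 0.5 h and control replicate 1 of 1 h thus stood apart. They also had the lowest mean of the members among the controls of their time (9.43 and 9.32), and the reason was not tested. Over all probe sets, 4 arrays stood farthest from the mean of their group: IAA 1 h replicate 3, control 0 h replicate 3, IAA 24 h replicate 2 and IAA 2 h replicate 3. Leaving them out gave 7 called members at 0.5 h, 28 for the deepening from 0.5 to 2 h and 84 for the F test. The share of all probe sets called without these arrays was not taken, so these counts are not read as a trait of the members.

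Members whose products act on the cell wall are described next, a grouping by role made after their values were seen. AT4G25250, of the pectin methylesterase inhibitor family, which restrains enzymes that alter pectin, read 9.89, 9.32 and 8.46 on the control arrays of 0.5 h and 6.81, 7.17 and 7.40 on the IAA arrays. At 2 h it read 9.87, 9.73 and 8.46 on control and 5.78, 6.21 and 6.14 on IAA. The groups did not overlap at either time, and control replicate 3 was the lowest control array at both. The gene was 4.27-fold lower at 0.5 h (D = -2.09 ± 0.42, SE, n = 3 per group, limma adjusted p = 0.00316), and its call was lost without control replicate 1 (adjusted p = 0.0602). That call was also lost without replicate 1 or 2 of both media (0.565 and 0.178). AT4G25250 was 4.63-fold lower at 1 h (D = -2.21 ± 0.42, limma adjusted p = 0.000987) and 9.93-fold lower at 2 h (D = -3.31 ± 0.42, adjusted p = 5.19e-07). The call at 1 h was lost without replicate 1 of both media (0.368) and with only the arrays of 1 h (0.064). At 8 h the controls read 9.64, 9.94 and 9.56 and the IAA arrays 5.95, 5.60 and 6.81. Its IAA mean at 2 h, 6.04, was under the lowest of the arrays' lower quartiles (6.11 to 6.30), so the fold there is not shown to be clear of background.

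EXPB1, a beta-expansin that loosens the wall, read 9.48, 9.05 and 8.16 on control and 7.02, 6.71 and 7.26 on IAA at 2 h, with no overlap. It was 2.50-fold lower at 0.5 h (D = -1.32 ± 0.32, limma adjusted p = 0.0228) and 3.73-fold lower at 2 h (D = -1.90 ± 0.32, adjusted p = 7.4e-05). The call at 0.5 h was lost without replicate 1 or 2 of either medium (adjusted p from 0.0536 to 0.272). The call at 1 h (D = -1.30 ± 0.32, limma adjusted p = 0.0178) was lost without control replicate 1 or 3 or IAA replicate 1 (0.0751 to 0.164). Without replicate 1 of both media, the calls at 0.5 and 1 h were lost too (0.922 and 0.974). With only the arrays compared they were also lost (0.0811 and 0.126). At 24 h EXPB1 read 9.52, 9.18 and 9.50 on control and 8.08, 7.34 and 8.43 on IAA, so the groups were still apart with D at -1.45.

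XTH21 and XTH16 code for xyloglucan endotransglucosylase/hydrolases, which cut and rejoin wall xyloglucan. XTH21 read 8.43, 8.47 and 8.28 on the control arrays of 2 h and 6.00, 6.19 and 6.72 on the IAA arrays, 4.24-fold lower (D = -2.09 ± 0.30, limma adjusted p = 6.62e-06). At 0.5 h its D was only -0.36 ± 0.30 (adjusted p = 0.859), and the step from 0.5 to 2 h, -1.73 ± 0.43, passed as an interaction (limma adjusted p = 0.0436). That step was lost when any 1 of 10 of the 12 arrays of 0.5 and 2 h was left out (adjusted p from 0.0681 to 0.185), all but control 0.5 h replicate 2 and IAA 2 h replicate 3. XTH16 read 8.37, 8.16 and 7.76 on control and 6.5, 6.13 and 6.43 on IAA at 2 h, 3.35-fold lower (D = -1.74 ± 0.22, limma adjusted p = 5.29e-07). Its D was -1.15, -1.62, -1.37 and -1.57 at 4, 8, 12 and 24 h, and the groups of 24 h did not overlap, with 7.72, 8.07 and 8.32 on control and 6.54, 6.29 and 6.57 on IAA. XTH21 at 24 h was more scattered, at 7.55, 5.55 and 7.41 on IAA against 8.47, 8.26 and 8.52 on control.

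Further members near the wall included AT1G19900, a secreted oxidase of the galactose oxidase family, AT3G04010, a glucan hydrolase gene of family GH17, and AT4G22460, which codes for a small protein of the lipid transfer type. AT4G22460 read 9.60, 9.27 and 8.88 on control and 8.01, 7.55 and 8.41 on IAA at 2 h, 2.39-fold lower without overlap (D = -1.26 ± 0.29, limma adjusted p = 0.00305). The call held without any 1 array and was lost without replicate 1 or 2 of both media and with only the arrays of 2 h (0.133, 0.125 and 0.0686). AT3G04010 was only 1.52-fold lower at 2 h (D = -0.61 ± 0.20, limma adjusted p = 0.0488), and that call was lost without any 1 array but IAA replicate 3 (0.0513 to 0.393). Both groups were tight at 8 h, with 9.93, 10.03 and 9.98 on control and 8.28, 8.22 and 8.47 on IAA. AT1G19900 overlapped at 2 h, with 8.98, 9.68 and 8.67 on control and 7.62, 6.87 and 8.83 on IAA (D = -1.34 ± 0.48, limma adjusted p = 0.0793). It passed without IAA replicate 3 (0.0115), without replicate 3 of both media (0.00038) and with the replicate number as a block (0.0205). Later, at 8 h, it read 8.44, 8.45 and 9.02 against 5.53, 5.79 and 6.01, and its D of -2.03 at 24 h was among the 13 that stayed at or under -2.

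**Figure D4:**
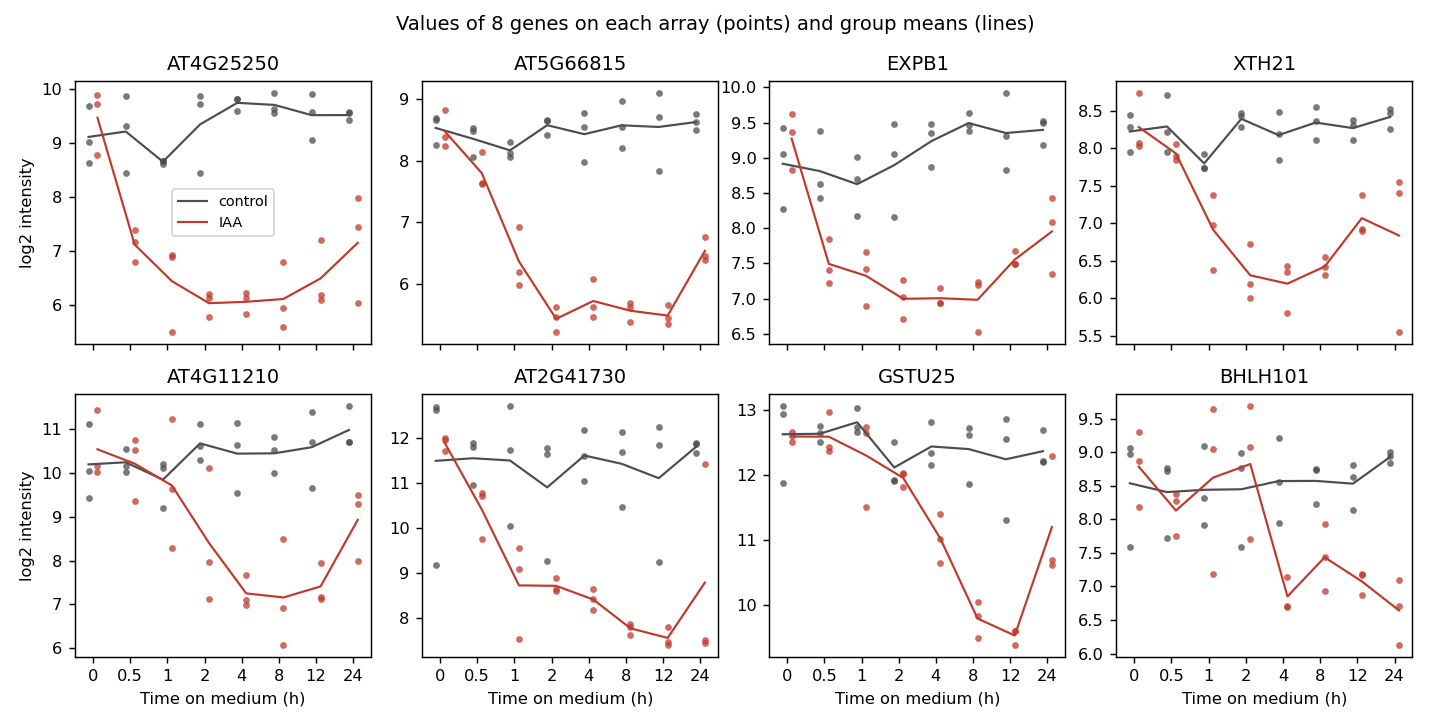
Log2 intensity of 8 genes on each array (points) and group means (lines) against time in hours, grey for control and red for IAA; each panel has its own vertical scale. AT4G25250 and EXPB1 separate by 0.5 h, AT5G66815 and XTH21 by 1 to 2 h, while GSTU25 and BHLH101 stay together with control until 2 h and are lower from 4 h.

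AT5G66815 codes for CEP5, the precursor of a small secreted peptide hormone of roots. On the control arrays it read 8.31, 8.06 and 8.13 at 1 h and 8.65, 8.65 and 8.42 at 2 h. On the IAA arrays it read 5.97, 6.19 and 6.92 at 1 h and 5.22, 5.45 and 5.62 at 2 h, below every control array at both times. It was 3.49-fold lower at 1 h (D = -1.80 ± 0.25, limma adjusted p = 6.4e-06) and 8.85-fold lower at 2 h (D = -3.15 ± 0.25, adjusted p = 1.58e-11), and both calls held under all 16 alternatives, with adjusted p up to 0.0405 and 0.000283. At 0.5 h D was -0.56 ± 0.25 (adjusted p = 0.482), and the deepening to 2 h, -2.59 ± 0.35, passed as an interaction (limma adjusted p = 0.000191). The interaction held without any 1 array (adjusted p up to 0.00202) and was lost without replicate 1 of both media (0.198). Its IAA mean of 5.43 at 2 h was also under all these quartiles.

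Among receptors, transporters and other signalling genes, AT5G24100 codes for a leucine-rich repeat receptor kinase. It read 8.41, 8.43 and 7.49 on control and 5.97, 5.97 and 6.32 on IAA at 2 h, with no overlap (D = -2.03 ± 0.28, limma adjusted p = 2.45e-06). The IAA mean of 6.09 was under the lowest of the arrays' lower quartiles, so the size of D is not shown to be clear of background. Its call at 1 h (D = -1.09 ± 0.28, limma adjusted p = 0.0242) was lost without control replicate 1 or 3 or IAA replicate 1 or 2 (0.0532 to 0.239). SWEET14, a sugar transporter, read 8.38, 7.76 and 8.67 on control and 6.51, 6.56 and 6.79 on IAA at 2 h, 3.14-fold lower (D = -1.65 ± 0.33, limma adjusted p = 0.000766). Its D at 0.5 h was 0.07 ± 0.33, with overlapping groups, and the call at 1 h (D = -1.28, adjusted p = 0.0275) was lost without control replicate 1 or IAA replicate 1 or 3 (0.124 to 0.322). AT1G23160, of the GH3 family of acyl-acid amido synthetases to which GH3.3 belongs, was lower at 2 h (D = -1.69 ± 0.46, limma adjusted p = 0.0137), with an IAA mean of 6.00 that was under all those quartiles too. Its IAA values there were 5.63, 5.41 and 6.95 against 8.08, 7.12 and 7.85 on control, and the call was lost without control replicate 1 or IAA replicate 1 or 2 (0.0751 to 0.11).

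AT3G45710, a nitrate transporter family gene (NPF2.5), showed another course. It read 10.10, 10.54 and 9.69 on control and 8.57, 8.84 and 10.28 on IAA at 2 h, so the groups overlapped through IAA replicate 3 (D = -0.88 ± 0.37, limma adjusted p = 0.146). Without that array D was -1.40 and passed. At 24 h it read 10.64, 10.34 and 10.35 on control and 8.24, 7.58 and 8.94 on IAA, and D, -2.19, was as large as at 8 h, -2.15.

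The other genes called at 0.5 or 1 h were less stable. AT2G34610 read 7.56, 7.50 and 8.03 on control and 6.60, 6.47 and 6.97 on IAA at 0.5 h, without overlap (D = -1.02 ± 0.26, limma adjusted p = 0.0414). Its calls at 0.5 h and at 1 h (D = -0.98, limma adjusted p = 0.04) were each lost without any 1 of 5 of the 6 arrays (0.0729 to 0.237), those other than IAA 0.5 h replicate 3 and IAA 1 h replicate 2. At 2 h it was lower (D = -1.48 ± 0.26, limma adjusted p = 0.000166), with an IAA mean of 6.06 under the lower quartile of all arrays. That call held without any 1 array and was lost without replicate 1 or 2 of both media (0.0597 and 0.0512).

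The 2 probe sets of AT1G22330 behaved alike. One of them, called at 0.5 h, read 8.05, 7.36 and 6.89 on control and 6.19, 5.97 and 6.64 on IAA (D = -1.16 ± 0.30, limma adjusted p = 0.0449), and the call was lost without replicate 1 or 2 of either medium (0.12 to 0.417). The second read 7.35, 6.94 and 6.65 on control and 5.86, 6.09 and 6.72 on IAA, where replicate 3 of IAA overlapped the controls (D = -0.76, adjusted p = 0.28). At 2 h both were called, with D of -1.36 and -0.96 (limma adjusted p = 0.00265 and 0.0205). The IAA mean of the first, 5.93, was under the arrays' lower quartiles. Its call held without any 1 array and was lost without replicate 1 or 2 of both media (0.106 and 0.152), and the second was lost without replicate 1 or 2 of either medium (0.0599 to 0.151). AT1G78260, another gene for an RNA recognition motif protein, was 2.60-fold lower at 2 h (D = -1.38 ± 0.26, limma adjusted p = 0.000411). Its call held without any 1 array and was lost without replicate 1 of both media (0.0972).

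AT1G03660, AT1G05060 and ZCF37 were first called at 1 h. AT1G05060 read 10.99, 9.25 and 10.48 on control and 8.91, 8.69 and 7.73 on IAA at 1 h, without overlap (D = -1.80 ± 0.46, limma adjusted p = 0.0242). Its call was lost without control replicate 1 or 3 or IAA replicate 3 (0.119 to 0.257), and at 2 h D was -0.83 (limma adjusted p = 0.313). AT1G03660 had D of -1.46 at 1 h and -1.29 at 2 h (limma adjusted p = 0.0236 and 0.0194), and ZCF37 had -1.04 and -0.99 (0.0487 and 0.022). The calls of AT1G03660 at 1 h were lost without replicate 1 or 3 of either medium and at 2 h without replicate 1 or 2 of either medium (0.078 to 0.279). With only the arrays compared they were lost too (0.217 at 1 h and 0.154 at 2 h). Leaving out replicate 1 of both media also took both away (0.479 at 2 h). Those of ZCF37 were lost at 1 h without replicate 1 or 3 of either medium and at 2 h without control replicate 1 or 2 or IAA replicate 1 (0.0768 to 0.499). The call of ZCF37 at 1 h was also lost with median centring (0.057) and with robust estimation and a trend (0.0527). Its call at 2 h was lost without replicate 1 of both media too (0.672).

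AT1G76240, a gene named by locus alone, read 10.07, 9.80 and 9.97 on control and 8.79, 8.87 and 9.09 on IAA at 2 h (D = -1.03 ± 0.21, limma adjusted p = 0.000861). The call held without any 1 array and was lost without replicate 1 of both media (0.137). By 8 h it read 9.93, 9.92 and 9.94 on control and 7.84, 7.80 and 7.99 on IAA, and at 24 h 10.09, 9.94 and 10.01 against 8.85, 8.33 and 9.15. The groups were thus apart by about the same step in every replicate at 8 h. AT3G59370, also named by locus alone, was 3.52-fold lower at 2 h (D = -1.82 ± 0.32, limma adjusted p = 0.000121), a call lost without replicate 2 of both media (0.0654). It read 9.45, 9.26 and 9.09 on control and 5.57, 5.39 and 6.37 on IAA at 8 h, and 9.45, 9.35 and 9.19 against 7.83, 7.40 and 8.20 at 24 h.

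Dirigent proteins guide the coupling of phenolic radicals, as in lignan and lignin formation. AT4G11210 read 10.61, 10.30 and 11.12 on control and 7.97, 7.13 and 10.10 on IAA at 2 h, 4.84-fold lower (D = -2.27 ± 0.65, limma adjusted p = 0.0197). At 8 h it read 10.53, 10.00 and 10.81 on control and 6.92, 6.08 and 8.48 on IAA. AT4G11190, next to it on chromosome 4 with 0 genes between them, read 11.03, 11.50 and 12.06 on control and 8.77, 8.15 and 11.33 on IAA at 2 h (D = -2.11 ± 0.66, adjusted p = 0.0349), where the groups overlapped through IAA replicate 3. Both calls were lost without control replicate 3 or IAA replicate 1 or 2, that of AT4G11190 also without control replicate 2 (adjusted p from 0.0786 to 0.265). Without replicate 1 or 2 of both media they were lost too (0.276 to 0.444), as with only the arrays of 2 h (0.176 and 0.248). Whether probes of such related neighbours also bind each other's transcripts was not tested.

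Of 25 dirigent genes in the list, 15 had a probe set that names 1 gene, and 2 are members. At 2 h 5 of the 15 were called lower and 1 higher (limma, adjusted p under 0.05), where 3.76% of all probe sets were called lower and 5.44% higher, and the median over the 15 was -0.19. Of the 13 that are not members, 3 were called lower and 1 higher at 8 h, where 6.43% of all probe sets were called lower and 8.45% higher, and their median was -0.10. The 3 called lower at 8 h were AT4G13580 (D = -2.27 at 8 h), AT2G39430 (-2.22) and AT1G55210 (-0.88), and they were called lower at 2 h too. AT4G13580 and AT2G39430 stood at -0.83 and -0.59 at 4 h, above the rule's limit of -1. AT1G22900 went the other way, with D at 2.36 at 4 h and 1.97 at 8 h.

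Class III peroxidases are secreted enzymes that cross-link or loosen the wall and serve in lignin formation. AT2G39040 was the 1 member among the 55 of 73 list genes with such a probe set. It read 9.93, 10.30 and 9.71 on control and 8.64, 8.02 and 9.21 on IAA at 2 h, 2.56-fold lower without overlap (D = -1.35 ± 0.41, limma adjusted p = 0.0271). The call was lost without control replicate 1 or 2 or IAA replicate 1 or 2 (0.0622 to 0.187). At 8 h it read 9.59, 9.88 and 9.62 on control and 7.05, 6.19 and 7.15 on IAA. Of the 55 genes, 7 were called lower and 3 higher at 2 h by limma, with 3.76% and 5.44% of all probe sets and a median of -0.03. Of the 54 that are not members, 7 were called lower and 7 higher at 8 h, with 6.43% and 8.45% of all probe sets and a median of -0.08. At 2 h the largest changes past the test were 1.85 for AT5G19890 (limma adjusted p = 0.0303) and the -1.35 of AT2G39040. The family moved in both directions at 8 h: AT3G01190 had D of -3.20 at 8 h, AT5G15180 -2.01 and AT5G66390 -1.77, against 1.69 for AT5G64100 and 1.32 for AT2G18980. AT3G01190 and AT5G66390 missed the rule at 4 h, with -0.91 and -0.31.

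Other members of specialised metabolism and defence included AT5G47980, an acyltransferase of the thalianol cluster, which makes root triterpenes, and the 1 measured gene of the 11 in the triterpene list. It read 9.39, 9.40 and 10.02 on control and 6.88, 6.99 and 8.73 on IAA at 2 h, 4.20-fold lower (D = -2.07 ± 0.54, limma adjusted p = 0.00995). The call was lost without control replicate 3 or IAA replicate 1 or 2 (0.0505 to 0.0988), and D was -1.67, -1.51, -1.76 and -1.32 at 4, 8, 12 and 24 h. The cytochrome P450 gene CYP71B34, the methyltransferase gene AT5G38020, the berberine bridge enzyme-like gene AT4G20820 and the germin-like gene AT1G18980 were not called at 2 h, with D from -1.14 to -0.49, except that AT5G38020 (D = -1.14, limma adjusted p = 0.0732) passed with the replicate number as a block (0.024). At 8 h their D ran from -2.71 for AT1G18980 to -1.56 for AT4G20820.

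The major latex protein-like genes AT1G14960 and AT1G70880 belong to a family of small ligand-binding proteins. AT1G14960 read 11.33, 11.97 and 11.54 on control and 9.39, 9.07 and 10.79 on IAA at 2 h, 3.64-fold lower (D = -1.86 ± 0.58, limma adjusted p = 0.0339). The call was lost without any 1 array but IAA replicate 3 (0.0549 to 0.186). At 4 h it read 11.33, 11.32 and 11.74 against 8.30, 8.85 and 8.41, where the IAA replicates lay close together. AT1G70880 was not called at 2 h (D = -0.80, limma adjusted p = 0.107) and had D of -1.11, -1.34, -1.50 and -1.24 at 4, 8, 12 and 24 h.

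The tau class glutathione transferases GSTU25 and GSTU26, detoxifying enzymes that attach glutathione to small molecules, are neighbours on chromosome 1 with 0 genes between them. GSTU25 was the named member whose D at 2 h was nearest to 0. It read 12.51, 11.92 and 11.90 on control and 12.02, 11.82 and 12.02 on IAA at 2 h (D = -0.16 ± 0.36, limma adjusted p = 0.868). At 8 h it read 12.62, 12.71 and 11.85 on control and 9.83, 10.04 and 9.50 on IAA, with D of -2.60, and at 12 h D was -2.71. GSTU26 already read 9.07, 8.18 and 10.95 at 2 h on IAA against 11.09, 10.87 and 12.41 on control (D = -2.05 ± 0.65, adjusted p = 0.0386), where IAA replicate 3 overlapped the controls. Its call was lost without control replicate 1 or 3 or IAA replicate 1 or 2 (0.0574 to 0.276). The difference between the neighbours at 2 h was not tested, and neither was cross-hybridisation between them.

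AT2G41730 and AT2G21640, the latter a marker of mitochondrial oxidative stress, had among the lowest D of all named members. AT2G41730 read 12.12, 11.68 and 10.47 on control and 7.87, 7.80 and 7.62 on IAA at 8 h, with D of -3.66. Its probe set carries the suffix by which the array's maker marks probes that can match further transcripts. At 2 h it read 11.78, 11.65 and 9.26 on control and 8.65, 8.88 and 8.59 on IAA. The groups did not overlap, but control replicate 3 lay far under the other controls, and D of -2.19 ± 0.83 did not pass (limma adjusted p = 0.0987). It passed without that array, with D at -3.01 (adjusted p = 0.0288), and with the replicate number as a block and all arrays kept (0.0433). At 1 h D was -2.78 (limma adjusted p = 0.0788, and 0.0271 with the block). AT2G21640 read 10.99, 10.41 and 9.18 on control and 7.21, 7.03 and 6.95 on IAA at 8 h, with D of -3.13, and at 2 h D was -1.39 ± 0.69 (adjusted p = 0.244). Of the 7 genes in the mitochondrial stress list 3 were measured, and the third, AT5G09570, had D of -0.68 at 4 h, -2.08 at 8 h and -2.52 at 24 h.

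At 24 h these genes split by array. AT2G41730 read 7.42, 11.41 and 7.50 on IAA and 11.66, 11.87 and 11.86 on control, so IAA replicate 2 lay next to the controls and replicates 1 and 3 about 4 units below. AT2G21640 read 6.64, 9.28 and 6.49 on IAA at 24 h against 9.97, 10.08 and 10.87 on control. AT2G04050, a MATE-type efflux transporter gene, read 6.24, 8.78 and 6.18 against 8.93, 8.42 and 9.14, with IAA replicate 2 inside the control range. These 3 had the largest SD of the named members among the IAA arrays of 24 h, at 2.28, 1.57 and 1.48.

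The deviating arrays moved 2 groups of members in opposite ways, a grouping made after the values were seen. In 24 members control 0 h replicate 3 lay at least 1 log2 unit below both other controls, among them AT2G41730, AT2G21640, AT2G04050, GSTU25 and BHLH101. In 13 of these 24, IAA 24 h replicate 2 lay at least 1 unit above both other IAA arrays, and in 10, IAA 1 h replicate 3 lay as far below. In 14 other members control 0 h replicate 3 lay at least 1 unit above both other controls, among them AT4G11190, AT4G11210, AT5G04120 and GSTU26. In 11 of these 14, IAA 1 h replicate 3 also lay above both others by that much, and in 0 did IAA 24 h replicate 2. AT5G04120 read 9.03, 8.74 and 11.74 on control at 0 h, 8.00, 9.64 and 11.76 on IAA at 1 h, and 6.96, 6.28 and 7.92 on IAA against 10.43, 9.48 and 11.31 on control at 8 h. The neighbours GSTU25 and GSTU26 were thus in opposite groups. Over all members, IAA 24 h replicate 2 lay at least 1 unit above both others in 14 and as far below both in 33. Shares over all probe sets were not taken for these splits, so they are not read as traits of the members. What differed between these arrays was not tested, and the labels give no batch.

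BHLH101, a transcription factor of the response to iron shortage, was 1 of 3 members with D above 0 at 2 h. It read 8.77, 8.99 and 7.59 on control and 9.08, 9.69 and 7.7 on IAA (D = 0.38 ± 0.48, limma adjusted p = 0.744). At 4 h it read 9.21, 8.56 and 7.95 on control and 6.70, 7.14 and 6.71 on IAA, and at 24 h 9.01, 8.84 and 8.94 against 7.10, 6.13 and 6.70. Its D was -1.72, -1.14, -1.46 and -2.29 at 4, 8, 12 and 24 h. Of 20 genes in the iron list 4 were measured and 0 were called by limma at 2 h or at 8 h, with 1 of the 4 at an unadjusted p under 0.05 at each of these times. The unadjusted call was higher on IAA at 2 h and lower at 8 h. Among the 3 that are not members, AT3G13610 was called higher at 4 h (D = 1.48, limma adjusted p = 0.00856) and AT3G12900 lower at 24 h (D = -0.60, 0.0466). AT4G05170, another bHLH factor gene, read 8.53, 8.58 and 7.65 on control and 7.96, 7.59 and 8.43 on IAA at 2 h, overlapping (D = -0.26 ± 0.28, adjusted p = 0.674). By 8 h it read 8.28, 8.06 and 8.11 against 6.46, 6.07 and 6.61, with D at -1.77.

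At 24 h most members stood nearer to control than at 8 h. The rule used the values of both times and the share over all probe sets was not taken, so this is a description only. The median of the members relative to the control mean of 24 h was -1.35, -1.77 and -1.03 in IAA replicates 1, 2 and 3. D was smaller in size at 24 h than at 8 h in 107 of the 119, and the ratio of D at 24 h to D at 8 h had a median of 0.679 and ran from 0.377 to 2.01. The ratio was under 0.5 in 15 members, which included AT4G11190 (0.411), GSTU25 (0.448) and AT3G59370 (0.436). It was at least 0.9 in 19, which included BHLH101 (2.01), AT3G45710 (1.02), XTH16 (0.970) and AT2G21640 (0.905). D was -2 or lower at all 4 times in 13 members. Because D at 24 h had to be at most -1, members that returned further are not in the set.

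**Figure D5:**
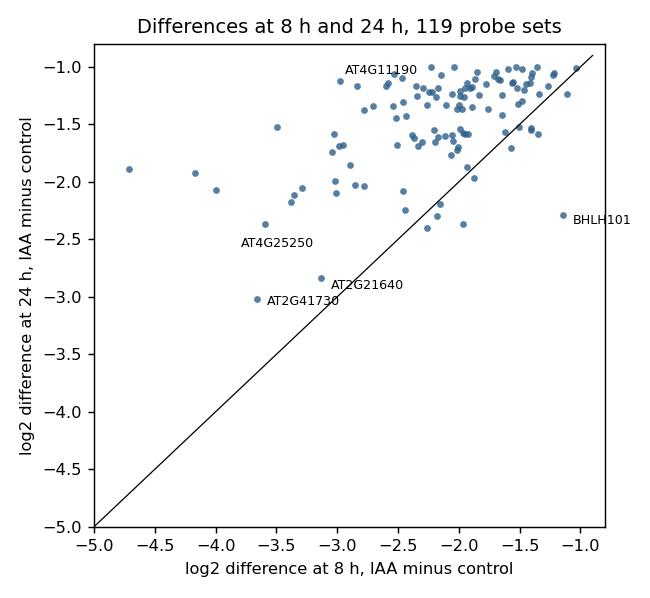
Each point is 1 of the 119 probe sets, with the log2 difference, IAA minus control, at 8 h on the horizontal axis and at 24 h on the vertical axis; the line marks equal values. Points above the line have a smaller difference at 24 h, 107 of 119, and BHLH101 lies farthest below it with -1.14 at 8 h and -2.29 at 24 h.

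Members not named by a gene included 253957_at, the unlisted probe set with the lowest mean D. It read 11.88, 11.55 and 11.64 on control and 8.35, 8.70 and 9.62 on IAA at 2 h, 6.97-fold lower, and its deepening from 0.5 to 2 h was -2.38 ± 0.47 (limma adjusted p = 0.0111). That interaction was lost without IAA 2 h replicate 1 (0.0737). At 8 h it read 11.78, 11.59 and 11.89 on control and 7.69, 7.27 and 8.31 on IAA. The next unlisted probe sets were 248252_at and 261428_at, with mean D over 4 to 24 h of -2.68 and -2.55.

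The limit of the rule cut through a continuous range. Just inside lay AT2G30930, whose highest D of the 4 times was -1.0003, AT5G02170, of an amino acid transporter family (-1.0014), and ZCF37 (-1.0031). Just outside lay hemb2 (-0.989), AT3G05950 (-0.983) and AT4G04990 (-0.966). AT1G15180 met the limit on D but had a mean of 5.33 over the arrays, below the minimum of 6.5. In 20 members the IAA mean at 1 or more of the 4 times was under every array's lower quartile, so the size of their difference there is a description of values that may be at background.

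Few marker genes were measured, that is, had a probe set that names 1 gene, and they cannot decide the root identity of the samples. The root hair expansins EXPA7 and EXPA18 had group means from 8.49 to 10.16 and from 8.79 to 10.45, and GSO1, which is needed for an intact Casparian strip, from 8.32 to 9.10. The 1 measured shoot marker, LHCB4.1, an antenna protein of photosystem II, ran from 7.27 to 8.06. These values lie around the arrays' medians (7.46 to 7.64), so a lack of shoot RNA was not shown. LHCB4.1 had D of -0.19 at 2 h and -0.06 at 8 h (limma adjusted p = 0.687 and 0.889). At 4 h it was called lower on IAA (D = -0.67, limma adjusted p = 0.0178). Of the 2 measured root hair genes of 18 and the 3 measured endodermal and suberin genes of 24, limma called 0 at 2 h and 0 at 8 h. At an unadjusted p under 0.05, 0 and 0 passed at 2 h and 0 and 2 at 8 h, both of the latter lower on IAA. At 4 h EXPA7 was higher (D = 0.89, limma adjusted p = 0.0473) and GSO1 lower (D = -0.55, 0.0142). At 24 h FACT, of suberin synthesis, was higher (D = 1.24, limma adjusted p = 0.00285), GSO1 lower (-0.67, 0.00561) and AT1G61590 lower (-0.80, 0.0369), the last also at 12 h (-0.74, 0.0421). The part of these genes' cells in the results was not tested. The aquaporin list and the nitrate and ammonium uptake list had 0 genes with a probe set that names 1 gene. Such genes may still be among the unlisted probe sets, also those of the members, so nothing is said of them.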

How the data were processed

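RNA of roots was labelled with biotin by an Affymetrix 3'-IVT protocol and hybridised to single-channel arrays, per the labels' protocols. The deposited table holds the authors' log2 intensities, 1 per probe set and array. The unit was read from the values, and the method of summary, the normalization and the build are not given in the sources used here. The arrays share a mean (7.70 to 7.71) but not a median (7.46 to 7.64). All arrays differed from each other (Pearson correlation 0.936 to 0.997). With 3 arrays in a group, their number limits the precision.

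The 64 control probe sets were left out of 22810. A mean for each of 16 groups was fitted to all 48 arrays by limma (version 3.58.1 in R 4.3.3; linear model with moderated variances; 32 residual degrees of freedom), with Benjamini-Hochberg adjustment over 22746 probe sets within a contrast and an adjusted p under 0.05 as the threshold. Tests are two-sided. D ± values are log2 differences with standard errors of this fit. The fit was tested on simulated data for IAA against control at 2 h over 22746 probe sets: 88% of changes of -1 and 97% of changes of -2 were recovered, with 11 false calls. The simulated noise was independent between arrays. It lacked the deviating arrays and shared replicate deviations of these data, so these shares do not carry over to them.

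Genes are named where the gene table gives exactly 1 symbol, updated through the RefSeq gene table of TAIR10.1, and otherwise by locus. Values on every array were given for the 6 named members with the lowest mean D over 4 to 24 h, the 4 lowest at 2 h, the 2 nearest 0 at 2 h, the 3 with the largest SD on IAA at 24 h and the members in a list. Also named were the 3 members just inside the limit and the 3 probe sets just outside it, the 2 largest changes past the test at 2 h of each list, the 3 unlisted probe sets with the lowest mean D, and other members for their role or course. The members, lists and rules were chosen with earlier results of these data known. Control and IAA arrays of the same replicate number and time deviated together (correlation over 0.1) in 12 of 12 pairs of 0 to 2 h (0.107 to 0.483) and in 7 of 12 pairs of 4 to 24 h (-0.18 to 0.287). The pairing comes from these values and from the numbers in the labels, which give no shared culture or day. The reported fit has no block, and blocked values of 0.5 to 2 h stand beside the named members whose call they change. Alternatives were quantile normalization, median centring, a minimum mean of 6.5, blocking on the replicate number, robust estimation with a trend, replicates or arrays left out, only the arrays compared, a fold of at least 2 and other limits of the rule. Where a call was lost by leaving out 1 array, its losses under the other alternatives are not all given. Sequences and coordinates were not used here.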

Additional observations from a re-analysis of the deposited data

Results flagged for a closer look

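Between 0.5 and 2 h the difference between IAA and control deepened in 6 members by a test of the difference itself. It was -2.59 for AT5G66815, -2.38 for the unlisted probe set 253957_at and -1.73 for XTH21 (log2, limma interaction, adjusted p = 0.000191, 0.0111 and 0.0436). The count was 1 on omission of IAA 2 h replicate 1 and 17 on omission of replicate 3 there. The change for XTH21 did not pass on omission of any of 10 of the 12 arrays, and that for 253957_at did not pass on omission of IAA 2 h replicate 1 (adjusted p = 0.0737).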

How the results depend on the processing

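The rule gave 125 members after quantile normalization (118 shared with the 119) and 117 after median centring (117 shared), 105, 107 and 120 without replicates 1, 2 and 3 (91, 82 and 96 shared), and 86 to 140 without 1 of the 24 arrays of 4 to 24 h. The extremes were 86 without IAA 24 h replicate 2 (77 shared) and 140 without IAA 24 h replicate 3 (116 shared). Limits of -0.9 and -1.1 on D gave 156 and 95 members, and means of at least 6 and 7 gave 120 and 114. The median D at 4 to 24 h differed by less than the spread between replicates under both scalings. Leaving out replicates 1 to 3, or 1 array of the times compared, gave counts of called members from 0 to 26 at 0.5 h, 1 to 14 at 1 h, 17 to 91 at 2 h, 0 to 17 for the deepening from 0.5 to 2 h and 11 to 84 for the F test. With only the arrays compared, 2, 1 and 26 members were called at 0.5, 1 and 2 h and 1 for the deepening. On omission of the 4 arrays that stood farthest apart, chosen after seeing the data, the counts were 7 at 0.5 h, 28 for the deepening and 84 for the F test. With the replicate number as a block, 5, 15 and 71 members were called at 0.5, 1 and 2 h, 11 for the deepening and 70 by the F test. Shares over all probe sets were taken only for the reported fit, so counts under the alternatives are not read as traits of the members. The block took no call away, and beyond the members given above it added those of AT4G33666 at 1 h (adjusted p = 0.045) and of AT5G19240 and AT1G14220 at 2 h (0.0413 and 0.0368) among named members. Of the tests of named members under the alternatives, 2077 kept their side of the threshold, 187 were no longer past it, 58 came to pass it and 0 called values turned direction. The 2077 include tests that were not called at first and stayed so. Only tests called at first could be lost, so these counts do not give the share of calls that held. The cause was not tested. Signal over background limits the size of the difference in the 20 members with a low IAA mean.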
